A study of Nicotiana tabacum with 8 samples.

Results

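Lipoxygenase transcripts of tobacco shoot tips were examined after growth in vessels with or without a culture of the fungus Cladosporium sphaerospermum TC09. The labels call this MVOC exposure, for microbial volatile organic compounds. The family was taken as 10 tomato lipoxygenase genes, chosen by their Solyc numbers out of 34725 tomato coding sequences listed, because the authors counted the tobacco reads on tomato sequences. They are LOXA, LOXB, LOXC, LOXF, LOXD and another 5 that are given here by their number only. Tobacco (Nicotiana tabacum) seedlings of the cultivar Samsun, 6 days old at the start, were grown for 10 days in closed vessels on MS medium with sucrose, with 3 seedlings in a vessel. In the TC09-exposed group a culture of the fungus grew in a tube closure inside the vessel, and in the control group the closure held medium only. RNA of the shoot tip with its youngest leaves was sequenced in 4 control libraries (numbered 9 to 12 in the labels) and 4 TC09-exposed libraries (13 to 16). The treatment text of the labels describes culture without exposure for all libraries, so the groups rest on the source name and the exposure tag. The labels describe a library as pooled tissue of the 3 seedlings of a vessel, whereas the paper describes a replicate as a plant, so p-values measure the spread between libraries that may not all come from separate vessels. The library numbers run with the groups, so a preparation step done in their order and the exposure cannot be told apart.

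Lipoxygenases are enzymes that add oxygen to polyunsaturated fatty acids such as linoleic and linolenic acid, and so open the oxylipin pathways of plants. From their products, leaves make the wound hormone jasmonate, the green-leaf volatiles and a range of antimicrobial compounds. The enzymes are grouped by the carbon of the fatty acid that they oxidize, and the chloroplast enzymes are those that lead to jasmonate and to green-leaf volatiles. In tomato, LOXD is the wound-inducible chloroplast enzyme that feeds jasmonate synthesis, LOXC is the chloroplast enzyme behind the short-chain volatiles of fruit and leaf, and LOXA and LOXB are best known from fruit. A Solyc number names the tomato gene, so tobacco copies that resemble the same tomato gene were counted together, and the responses of separate copies were not examined.

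The libraries held 7853857 to 9365844 total gene reads in the control and 8129933 to 9674090 in the TC09-exposed group. Levels are given as counts per 1e6 reads normalized by TMM (CPM), and changes are those of edgeR's quasi-likelihood test, with p-values adjusted by the Benjamini-Hochberg method across all 19325 genes left by the low-count filter. In that comparison 21.6% of all genes tested were called at an adjusted p of 0.05 or less, with 1848 higher (9.56%) and 2317 lower (12%). When libraries were scaled by their totals alone, 3057 genes were called higher and 1666 lower. The tissue was not checked against marker genes, because the deposited files hold no gene names.

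Of the 10 lipoxygenase genes, 7 passed the filter, of which 1 was higher, 2 were lower and 4 were not called (edgeR). These 3 calls among 7 genes stand beside the 21.6% called over all genes. The higher gene was the member with the most reads, Solyc05g014790, and the lower genes were Solyc12g011040 and LOXF. The count of lower genes was 1 when any one of libraries 10 to 14 was left out and 0 without library 15 (edgeR). The median log2 fold change of the 7 genes was -0.34, against 0.01 over all genes tested, and their median absolute log2 fold change was 0.57, against 0.26. Every library of a group lay on the same side of the other group in 2 of the 7 genes, near the 25% found over all genes tested. In whole shoot tips, fewer cells of a type and less RNA per cell cannot be told apart.

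**Figure D1:**
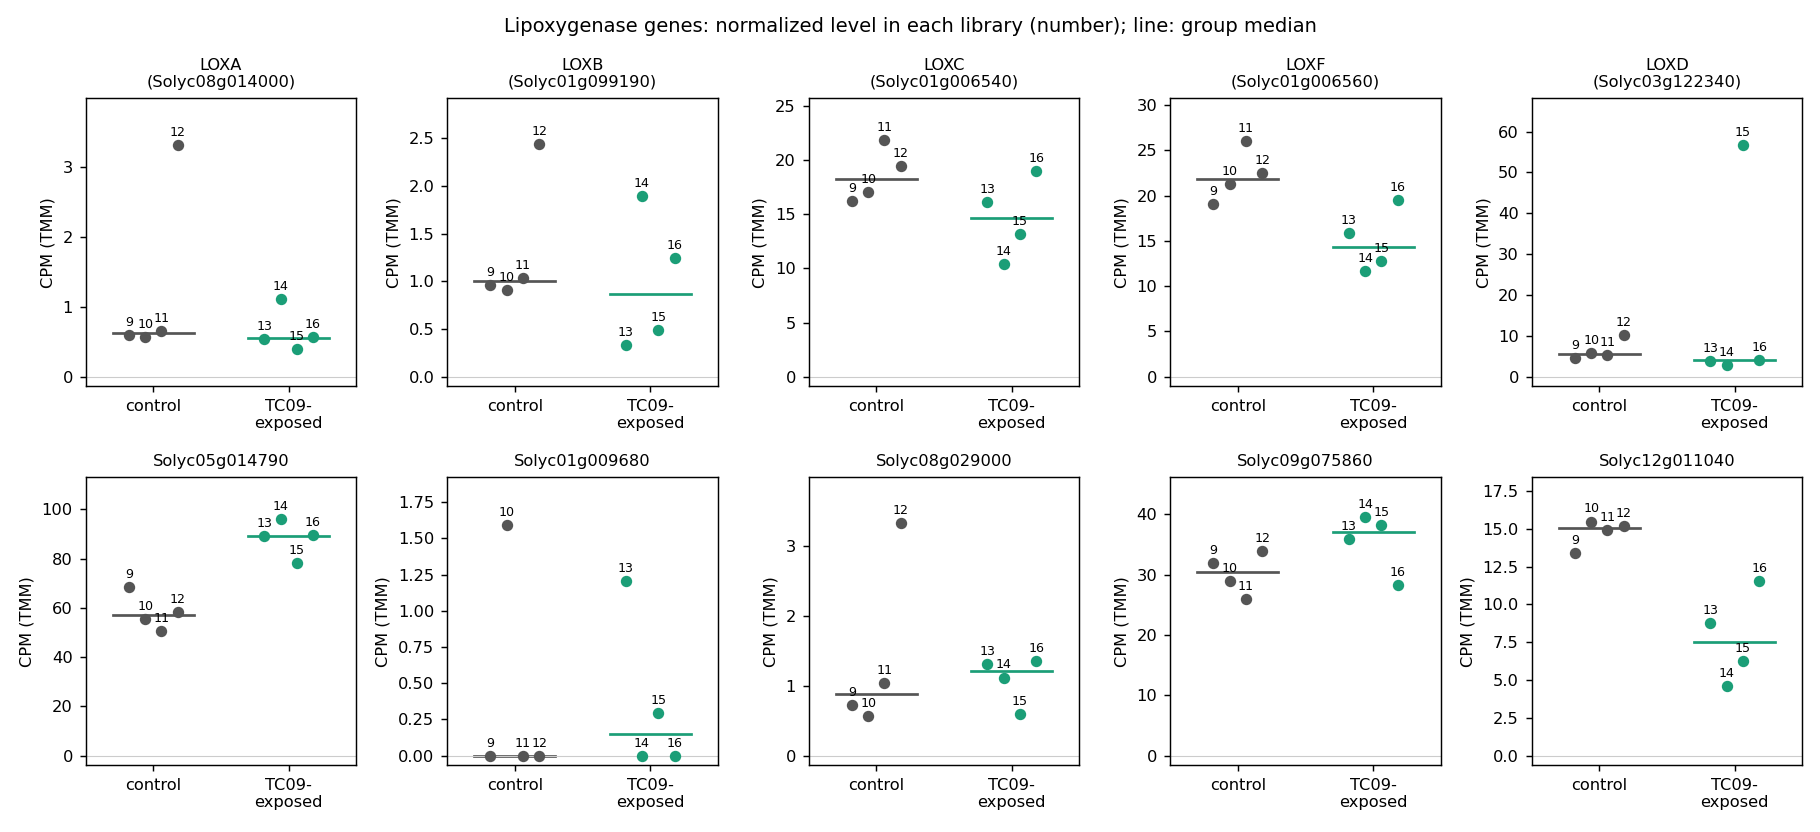
Each panel plots the CPM (TMM) of a lipoxygenase gene on the vertical axis, on its own linear scale, in the 4 control libraries (grey) and the 4 TC09-exposed libraries (green), with the library number above each point and a line at the group median. The groups are separate for Solyc05g014790 and Solyc12g011040, LOXD stands at 56.6 CPM in library 15 alone, and LOXA, LOXB and Solyc08g029000 are highest in control library 12.

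Solyc05g014790 was the only member called higher. It had 68.7, 55.6, 50.6 and 58.5 CPM in control libraries 9 to 12 and 89.2, 96.1, 78.3 and 89.4 CPM in TC09-exposed libraries 13 to 16. All exposed libraries lay above all control libraries. The group means were 58.3 ± 7.63 CPM in the control and 88.3 ± 7.38 CPM with exposure (SD, n = 4 libraries each). The rise was 1.51-fold, or 0.60 on the log2 scale (SE 0.108, edgeR adjusted p = 0.00423). The control libraries together held 1974 of its reads and the exposed libraries 3259, and 100% of them were unique to this gene. The call held under every alternative tried, with log2 fold changes of 0.55 to 0.70 and adjusted p of 3.0e-05 to 0.0197.

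Solyc12g011040 had the largest fall among the called members. Its level was 13.4, 15.5, 14.9 and 15.2 CPM in control libraries 9 to 12 and 8.75, 4.58, 6.24 and 11.5 CPM in exposed libraries 13 to 16. The control libraries were close together, the exposed libraries were spread, and none of the exposed libraries reached the lowest control. The group means were 14.7 ± 0.917 CPM in the control and 7.77 ± 3.04 CPM with exposure (SD, n = 4 libraries each), so that the gene fell by 0.93 on the log2 scale (SE 0.235, edgeR adjusted p = 0.0200). Without exposed library 15 the log2 fold change was -0.83 and the call ended (adjusted p = 0.0576, edgeR, with 0.00188 to 0.108 over all alternatives). Of its reads 94.9% were unique, and with unique reads only the log2 fold change was -0.92 (adjusted p = 0.0174, edgeR).

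LOXF (Solyc01g006560) and LOXC (Solyc01g006540) carry nearby numbers on tomato chromosome 1 and had similar levels. LOXF had 19.1, 21.3, 26.1 and 22.5 CPM in control libraries 9 to 12 and 15.9, 11.7, 12.8 and 19.6 CPM in exposed libraries 13 to 16. The groups overlapped only through exposed library 16, which lay just above control library 9. The group means were 22.2 ± 2.91 CPM in the control and 14.98 ± 3.52 CPM with exposure (SD, n = 4 libraries each), and LOXF fell by 0.57 on the log2 scale (SE 0.168, edgeR adjusted p = 0.0360). The call was close to the threshold and ended without control library 10, 11 or 12 and without exposed library 13, 14 or 15 (adjusted p = 0.0520, 0.101, 0.0719, 0.0691, 0.0544 and 0.0953, edgeR, with 0.0131 to 0.159 over all alternatives).

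LOXC, the volatile-forming enzyme of tomato, had 16.2, 17.1, 21.8 and 19.4 CPM in control libraries 9 to 12 and 16.1, 10.4, 13.2 and 19.0 CPM in exposed libraries 13 to 16. The groups overlapped, since exposed library 16 lay within the control range. Its log2 fold change came to -0.34 (SE 0.181, edgeR adjusted p = 0.203), and its 95% interval spanned ratios of 0.596 to 1.04. LOXC was not called under any alternative.

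LOXC and LOXF are uncertain as separate genes. Only 63.0% of the LOXF reads (60.7% to 66.2% by library) and 87.1% of the LOXC reads (81.7% to 94.6%) were unique, and the files do not say which gene shared the others. With unique reads only, the log2 fold changes were -0.57 for LOXF (adjusted p = 0.0471, edgeR) and -0.32 for LOXC (adjusted p = 0.265, edgeR). Whether the pair responded differently was tested on their ratio within each library, which does not depend on the scaling between libraries. The log2 ratio of LOXF to LOXC reads was 0.26 ± 0.044 in the control and 0.04 ± 0.098 in the exposed libraries (SD, n = 4 each), and every exposed value (-0.04 to 0.17) lay below every control value (0.21 to 0.32). The difference was -0.22 with p = 0.0286 (exact permutation test, two-sided), the smallest that 4 against 4 libraries allow, and after adjustment over the 3 ratios tested among LOXC, LOXD and LOXF the adjusted p was 0.0857 (exact permutation test). With p of 0.943 and 0.771 for the other 2 ratios (exact permutation test), that is the lowest adjusted p this ratio could reach. With unique reads the difference was -0.21 (adjusted p = 0.257, exact permutation test, with 0.0857 to 0.257 over all alternatives).

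Among the exposed libraries, LOXC, LOXF and Solyc12g011040 followed the same order. Each was lowest in library 14, next in library 15, then in library 13, and highest in library 16. In library 14, where these genes were lowest, Solyc05g014790 and Solyc09g075860 had their highest level. LOXC and LOXF may count some of the same reads, so their common order may not be that of separate genes. The TMM factors ran the other way, at 1.102, 1.044, 1.025 and 0.970 in libraries 14, 15, 13 and 16. In the deposited TPM, which are not scaled by TMM, LOXC and Solyc12g011040 kept the order they had in CPM. LOXF was at 4.67 TPM in library 14 and 4.63 TPM in library 15, so these libraries changed places. The part of the TMM scaling in the order was not tested.

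Solyc09g075860 had the second most reads of the members and was not called. It had 31.9, 29.0, 26.1 and 34.0 CPM in control libraries 9 to 12 and 35.9, 39.5, 38.2 and 28.3 CPM in exposed libraries 13 to 16. Exposed libraries 13, 14 and 15 lay above all controls, while library 16 lay among the lower controls. Its log2 fold change came to 0.23 (SE 0.125, edgeR adjusted p = 0.221), and the 95% interval spanned ratios of 0.966 to 1.42.

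**Figure D2:**
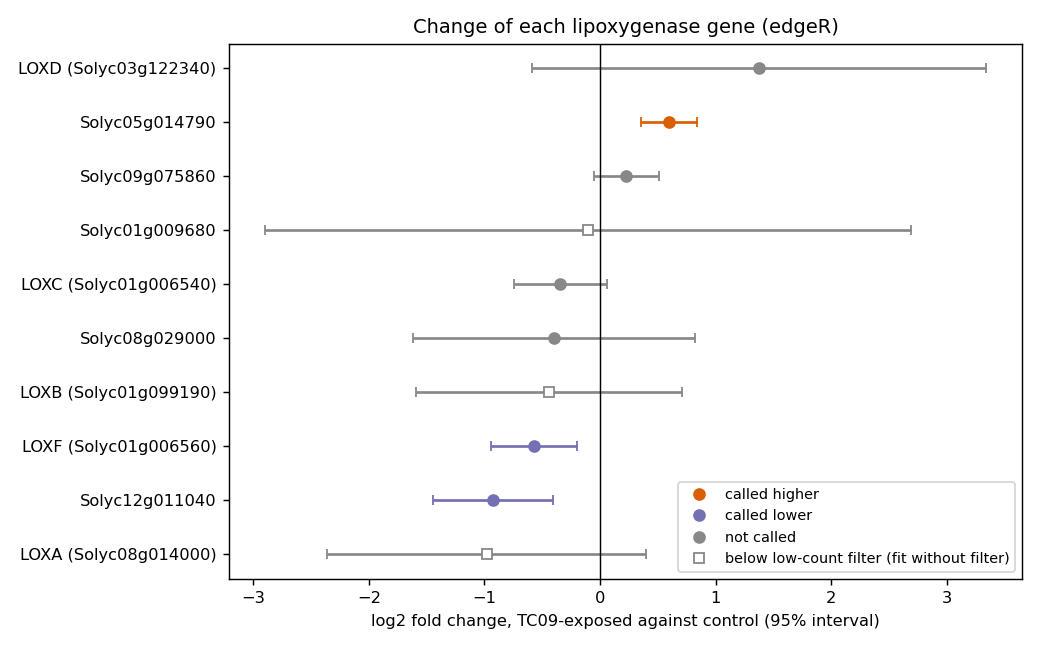
The horizontal axis gives the log2 fold change of TC09-exposed against control for each of the 10 genes with its 95% interval from edgeR, filled circles for the 7 genes that passed the filter and open squares for the other 3, which come from the fit without it. Only Solyc05g014790 (0.60), LOXF (-0.57) and Solyc12g011040 (-0.93) were called, and the widest intervals are those of Solyc01g009680 and LOXD.

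LOXD (Solyc03g122340), the jasmonate-forming enzyme of tomato leaves, varied more between the exposed libraries than any other member. Its level was 4.59, 5.92, 5.32 and 10.3 CPM in control libraries 9 to 12 and 3.94, 2.79, 56.6 and 4.18 CPM in exposed libraries 13 to 16. Library 15 held 572 reads of LOXD, of which 570 were unique to it, whereas libraries 13, 14 and 16 held 36, 25 and 37. The level in library 15 was 15.6-fold the mean of the other 3 exposed libraries, and those 3 all lay below all 4 control libraries.

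The direction of LOXD rested on library 15. Over all libraries the log2 fold change came to 1.38 (SE 0.887, edgeR adjusted p = 0.294), with a 95% interval of ratios from 0.664 to 10.2. Without library 15 it was -0.85 (SE 0.308, edgeR adjusted p = 0.0928), and without both library 15 and control library 12 it was -0.54 (adjusted p = 0.174, edgeR, with 0.0928 to 0.856 over all alternatives). DESeq2 gave LOXD no p-value, because the Cook's distance of library 15 (26.9) exceeded its limit of 10.9. No change of LOXD with exposure was therefore called in either direction. The ratios of LOXD to LOXC and to LOXF were likewise not called over the 8 libraries (differences of 0.57 and 0.79 on the log2 scale, adjusted p = 0.943 for both, exact permutation test).

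This deviation of library 15 was the largest of its kind in the exposed group. Dividing the highest exposed library by the next highest gave 13.5 for LOXD, and of the 19325 genes tested no other gene reached that ratio. Library 15 was at least 5-fold above the next exposed library in 4 genes, including LOXD, against 5 genes for library 14 and 0 for libraries 13 and 16. The other lipoxygenase genes did not share it, and Solyc09g075860 in library 15 was 1.11-fold the mean of the other exposed libraries while LOXF was 0.813-fold. This ratio was chosen as a measure after the values were seen.

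The jasmonate signaling gene JA-1 and the insect resistance genes of the paper's selection were not highest in library 15. The deposited files hold no gene names, and the genes the paper names include none of the enzymes that follow lipoxygenase in the jasmonate pathway, so the list was JA-1 (Solyc05g007180) and those 13 insect resistance genes. The study chose these genes on these libraries, so they are no independent evidence of a direction. JA-1 rose 2.13-fold (adjusted p = 0.00118, edgeR), with 43.1, 39.4, 35.8 and 41.5 CPM in exposed libraries 13 to 16. Among the exposed libraries it was lowest in library 15, at 0.867-fold the mean of the other 3. Whether JA-1 or the insect resistance genes follow LOXD was not tested. Of the 13 insect resistance genes 10 passed the filter, and 10 were higher and 0 lower (edgeR), by 1.87-fold to 3.92-fold. Library 15 was the highest exposed library in 0 of these 13 genes, at 0.591-fold to 1.19-fold the mean of the other 3. Over all 19325 genes tested it was the highest exposed library in 3350, the fewest of any exposed library. A count of 0 among 13 genes therefore says little about these genes.

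The low members were LOXA, LOXB, Solyc08g029000 and Solyc01g009680, with group means below 2 CPM. LOXA (Solyc08g014000) had 5, 5, 5 and 30 reads in control libraries 9 to 12 and 5, 10, 4 and 5 reads in exposed libraries 13 to 16. Library 12 alone held 30 of its 45 control reads. LOXA did not pass the filter, and the fit without it gave a log2 ratio of -0.98 (SE 0.633, edgeR adjusted p = 0.343) with a 95% interval of ratios from 0.195 to 1.32.

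LOXB (Solyc01g099190) had 8, 8, 8 and 22 reads in control libraries 9 to 12 and 3, 17, 5 and 11 reads in exposed libraries 13 to 16. Library 12 was again the highest control, and the exposed libraries spread on either side of the rest. LOXB did not pass the filter, and the fit without it gave a log2 ratio of -0.44 (SE 0.529, edgeR adjusted p = 0.614), with ratios of 0.331 to 1.63 in the 95% interval.

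Solyc08g029000 passed the filter with few reads. It had 6, 5, 8 and 30 reads in control libraries 9 to 12 and 12, 10, 6 and 12 reads in exposed libraries 13 to 16. Its log2 fold change came to -0.40 (SE 0.549, edgeR adjusted p = 0.640). Without control library 12 it was 0.49 (adjusted p = 0.445, edgeR, with 0.246 to 0.898 over all alternatives), so its direction rested on that library.

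Control library 12 was therefore the highest control library for LOXA, LOXB, LOXD and Solyc08g029000, and by a small margin for Solyc09g075860. In LOXA, LOXB, LOXD and Solyc08g029000 it stood at 5.47-fold, 2.51-fold, 1.95-fold and 4.28-fold the mean of the other 3 controls. The ratio was 1.00-fold to 1.17-fold in Solyc05g014790, LOXF, Solyc12g011040, LOXC and Solyc09g075860. Over all genes tested, library 12 was at least 2-fold above the next control library in 116 genes (0.6%), against 6, 39 and 32 genes for libraries 9, 10 and 11. Among the exposed libraries the same measure gave 198 genes (1.02%) for library 14, against 19, 72 and 26 genes for libraries 13, 15 and 16. By that measure library 12 stood 3.20-fold above the next control library in Solyc08g029000 and 1.74-fold in LOXD. LOXA and LOXB did not pass the filter and are not among the genes tested. What sets library 12 or library 14 apart was not tested.

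**Figure D3:**
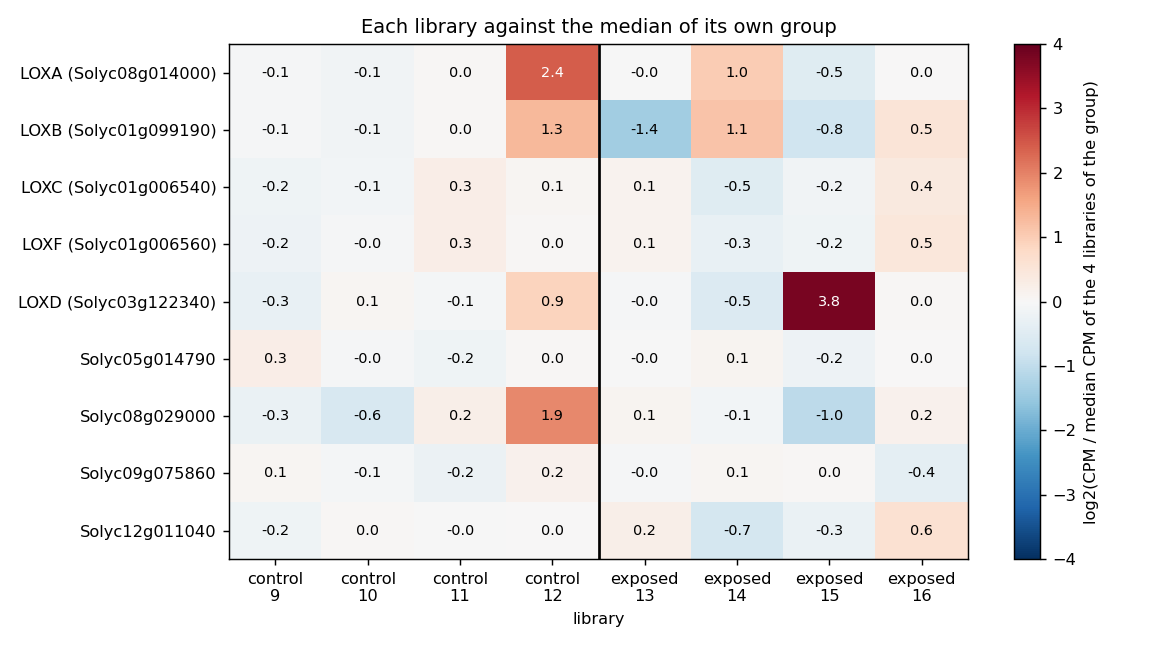
Rows are the lipoxygenase genes except Solyc01g009680, whose control median is 0, columns are the 8 libraries, and each cell prints and colours the log2 ratio of the library's CPM to the median of its own group. LOXD in library 15 reaches 3.8, and LOXA, LOXB and Solyc08g029000 in library 12 reach 2.4, 1.3 and 1.9. These low-count genes also vary among the exposed libraries, with LOXB at -1.4 in library 13 and 1.1 in library 14. LOXA is at 1.0 in library 14 and Solyc08g029000 at -1.0 in library 15. LOXC, LOXF, Solyc05g014790 and Solyc09g075860 stay near 0.

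Solyc01g009680 was detected in only some libraries. It had 0, 14, 0 and 0 reads in control libraries 9 to 12 and 11, 0, 3 and 0 reads in exposed libraries 13 to 16. A count of 0 allows up to 3 reads, which is 0.332 to 0.389 CPM in the 5 libraries without a read (counting error only). Only 32.1% of its reads were unique, and its coding length of 1332 bp was shorter than that of the other 9 members (2577 to 2736 bp). The groups did not differ detectably at this depth (log2 fold change -0.10, standard error 1.28, in the edgeR fit without the filter).

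Levels between members were set side by side per coding length, with the deposited TPM (transcripts per 1e6). This scaling does not correct for how closely tobacco transcripts match a tomato sequence, or for how many tobacco copies were counted on it. The order, sums and shares below are therefore those of the reads counted, and may differ from the order of tobacco transcripts. In the control group Solyc05g014790 was highest at 19.4 ± 2.36 TPM, followed by Solyc09g075860 at 10.5 ± 1.37, LOXF at 7.49 ± 1.21, LOXC at 6.32 ± 1.07, Solyc12g011040 at 5.01 ± 0.407 and LOXD at 2.20 ± 0.944 TPM (SD, n = 4). The ranges of neighbours in this order overlapped between LOXF and LOXC and between LOXC and Solyc12g011040, and were separate for the other neighbours down to LOXD. LOXD lay above the 4 low members, whose mean TPM of 0.260 to 0.509 overlapped one another.

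After exposure, Solyc05g014790 remained highest at 31.7 ± 4.34 TPM and Solyc09g075860 second at 13.3 ± 2.74 TPM (SD, n = 4). LOXF at 5.36 ± 0.889 and LOXC at 5.27 ± 0.973 TPM overlapped each other, and Solyc12g011040 at 2.79 ± 0.903 TPM lay below both in all libraries. The mean of LOXD, 6.07 ± 9.55 TPM (SD, n = 4), lay between those of Solyc09g075860 and LOXF and rested on library 15 with 20.4 TPM. Its median of 1.39 TPM lay below that of Solyc12g011040 (2.72 TPM), as in the control libraries.

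The summed level of the family was 51.4, 48.2, 51.1 and 59.6 TPM in control libraries 9 to 12 and 62.2, 67.5, 75.3 and 58.2 TPM in exposed libraries 13 to 16. Without LOXD the sum was 50.4 ± 4.10 TPM in the control and 59.7 ± 5.11 TPM in the exposed libraries (SD, n = 4 each). In TPM, which is not scaled by TMM between libraries, the groups overlapped with and without LOXD. In CPM the sum was 147 to 169.0 in the control and 169.3 to 207 in the exposed libraries, so the groups were narrowly separate. Without LOXD the CPM sums overlapped, at 142 to 159 in the control and 150 to 171 in the exposed libraries. Solyc05g014790 made up 33.8% to 43.4% of the sum in the control libraries and 50.5%, 56.1%, 37.4% and 50.5% in exposed libraries 13 to 16. In library 15, where its share was within the control range, LOXD made up 27.1%. The share of Solyc12g011040 was 8.66% to 10.4% in the control and 2.73% to 6.65% in the exposed libraries. Sums and shares over the members were not tested.

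**Figure D4:**
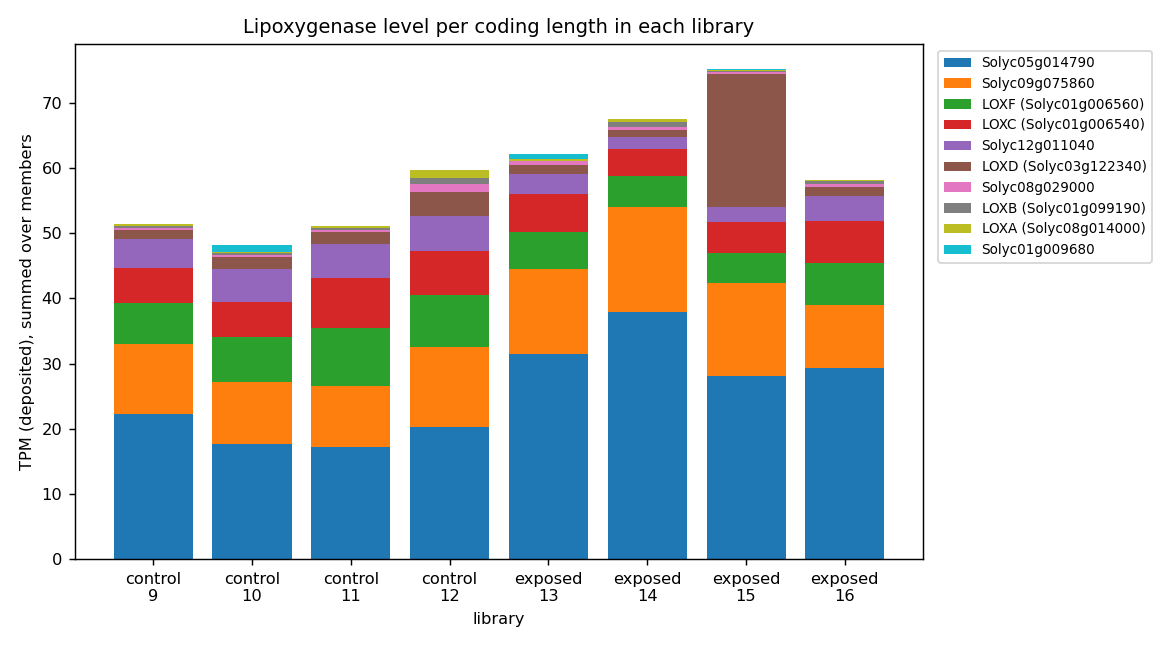
Stacked bars give the deposited TPM of the 10 lipoxygenase genes, summed on the vertical axis from 0, in each of the 4 control and 4 TC09-exposed libraries. The Solyc05g014790 segment is larger in all exposed libraries (28.1 to 37.9 TPM) than in the controls (17.3 to 22.3 TPM), and the LOXD segment is wide in library 15 only, at 20.4 TPM.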

How the data were processed

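Per the paper's methods, the authors trimmed and filtered 50 bp reads and used CLC Genomics Workbench (version 10) at its default settings to map them to tomato. The deposited files hold whole-number counts of total and unique gene reads. For the tomato annotation, the release was not given in the sources read. The deposited TPM values are total gene reads per coding length scaled to 1e6, and recomputing them differed by at most 1.9e-10. Reads that matched several genes made up 4.62% to 5.59% of a library.

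Counts were tested over the whole table with edgeR (version 4.0.16, R version 4.3.3): filterByExpr (count of 10, total of 15), TMM (factors 0.938 to 1.10), quasi-likelihood fit with the condition as its only term. The standard error (SE) was derived from the log2 fold change and its F statistic, and the 95% interval uses the t quantile at 10.3 degrees of freedom. Members below the filter come from the fit without it. Ratios of 2 members used a pseudocount of 0.5. Libraries of a group differed beyond sampling noise (chi-square per degree of freedom of 6.42 to 34.4).

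Members and lists were chosen with earlier results of these data known. All 10 members are named, and other genes only where the paper annotates them. The reference table covers tobacco, holds no Solyc numbers and no sequences, so none are shown. Alternatives were RLE factors, no low-count filter, a minimum mean of 50 reads, total library size, DESeq2 (version 1.42.0), limma-voom (limma version 3.58.1), the edgeR likelihood-ratio test, unique reads, an adjusted p of 0.01, a pseudocount of 5 and leaving out each library. Leaving out libraries 12 and 15 together was added after the data were seen. The scripts were tested on simulated data.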

Additional observations from a re-analysis of the deposited data

Results flagged for a closer look

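Dixon's limit for the gap over the range was applied to the 18 groups of 4 libraries with reads in each. In 4 of them a single library lay further from the rest than that limit. Chance gives about 1 in 20 groups if values are independent and normally distributed, which low counts need not be. LOXA, LOXB and Solyc08g029000 were flagged in the same library, so their groups are not independent. The share over all genes was not computed. LOXD had 56.6 CPM in TC09-exposed library 15, with 2.79 to 4.18 CPM in the other exposed libraries. LOXA had 3.32 CPM in control library 12, with 0.569 to 0.648 CPM in the other controls. LOXB had 2.44 CPM in control library 12, with 0.911 to 1.04 CPM in the others. Solyc08g029000 had 3.32 CPM in control library 12, with 0.569 to 1.04 CPM in the others, and its gap of 0.830 was close to the limit.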

How the results depend on the processing

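The count of 1 higher member was the same under all 18 alternatives, and all of them kept the direction of LOXC, LOXF, Solyc05g014790, Solyc09g075860 and Solyc12g011040. The count of 2 lower members became 0 at an adjusted p of 0.01 or less and 0 without both control library 12 and exposed library 15, and it ranged from 0 to 2 when each library was left out, where fewer samples were tested. LOXD reversed to -0.85 without exposed library 15 and to -0.54 without that library and control library 12, reached 1.73 without exposed library 14, and was 0.25 with limma-voom. Its ratios to LOXC and LOXF reversed to -0.46 and -0.26 without library 15, and ranged up to 0.97 and 1.19 without others. Solyc08g029000 reversed to 0.49 without control library 12 and to 0.70 without both, and was lowest at -0.66 without control library 10. LOXA and Solyc01g009680 were left out by every edgeR and limma-voom low-count filter tried. At these depths a member below 2 CPM has few reads, and its change was not resolved.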
